A study of Homo sapiens with 20 samples.

Results

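Iron handling and the guards against ferroptosis are described here through 9 genes, chosen by symbol from the 60271 genes counted in the series. TFRC, STEAP3 and SLC11A2 act in iron uptake, FTH1, FTL and NCOA4 in iron storage and its release, SLC40A1 in iron export, and GPX4 and AIFM2 in protection of membrane lipids from peroxidation. All 9 were found, and all 9 passed the filter on low counts, which kept 16522 genes. The RNA came from MDA-MB-468, an epithelial line from a triple negative breast cancer with high levels of the receptor for epidermal growth factor (EGF). Untreated control cells were compared with cells given 50 ng/mL EGF, an inducer of epithelial-mesenchymal transition in this line, for 12, 24, 48 or 72 h, with 4 biological replicates in each of the 5 groups. The labels state that cells were serum-starved before EGF and that all groups were seeded and harvested together. The design rests on 1 cell line, and the study made no check of its own on the identity of the cells or on infection with mycoplasma.

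Cells take up most of their iron as transferrin bound to the transferrin receptor, reduce it in endosomes and move it to the cytosol, where the surplus is stored inside ferritin shells. Ferritin is built from heavy (FTH1) and light (FTL) chains, and ferroportin (SLC40A1) is the known exporter of iron from the cell. Iron regulatory proteins bind short stem-loops called iron-responsive elements when iron is scarce, which stabilises the TFRC mRNA and blocks translation of the ferritin and ferroportin mRNAs. Iron also drives the peroxidation of polyunsaturated membrane lipids, and ferroptosis is the form of cell death that follows when this peroxidation is not held back. The glutathione peroxidase GPX4 reduces lipid peroxides, while AIFM2 regenerates lipophilic radical traps independently of glutathione.

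Iron-responsive elements found in 4 of the 9 mRNAs are shown because the results below turn on these mRNAs. They were read from the GENCODE 29 transcripts (GRCh38) as 27 bases with the loop in capitals. A stem-loop was accepted where the loop CAGUGN was closed by 5 upper pairs, an unpaired C on its 5′ side and at least 3 lower pairs.
FTH1 5′ UTR, exon 1, chr11:61967575-61967601, minus strand: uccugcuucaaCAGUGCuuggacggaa
FTL 5′ UTR, exon 1, chr19:48965336-48965362, plus strand: ucuugcuucaaCAGUGUuuggacggaa
SLC40A1 5′ UTR, exon 1, chr2:189580662-189580688, minus strand: aacuucagcuaCAGUGUuagcuaaguu
TFRC 3′ UTR, exon 19, chr3:196050980-196051006, minus strand: auuaucggaagCAGUGCcuuccauaau
TFRC 3′ UTR, exon 19, chr3:196050576-196050602, minus strand: auuaucgggagCAGUGUcuuccauaau
TFRC 3′ UTR, exon 19, chr3:196050511-196050537, minus strand: uguaucggagaCAGUGAucuccauaug
TFRC 3′ UTR, exon 19, chr3:196050464-196050490, minus strand: auuaucgggaaCAGUGUuucccauaau
The rule was matched in 73 of 19702 representative transcripts, or 0.371%, while the bare letters CAGTG occurred in 93.9% of them. The ferritin and ferroportin elements lay ahead of the coding sequence, at bases 60 to 86 in FTH1, 36 to 62 in FTL and 200 to 226 in SLC40A1. The 4 TFRC elements that matched the rule lay behind it, between bases 3389 and 3931 of a transcript of 5111 bases. Not every transcript of these genes carried the element, which was found in 7 of 8 coding transcripts of FTH1, 1 of 1 of FTL, 1 of 5 of SLC40A1 and 3 of 4 of TFRC. The counts were given per gene and cannot say which transcripts were made. No transcript of SLC11A2, STEAP3, NCOA4, GPX4 or AIFM2 matched the rule. The rule takes a single shape, with every upper pair formed and only the C unpaired, so elements of other shapes would be missed. A gene without a match is therefore not shown to lack an element.

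**Figure D1:**
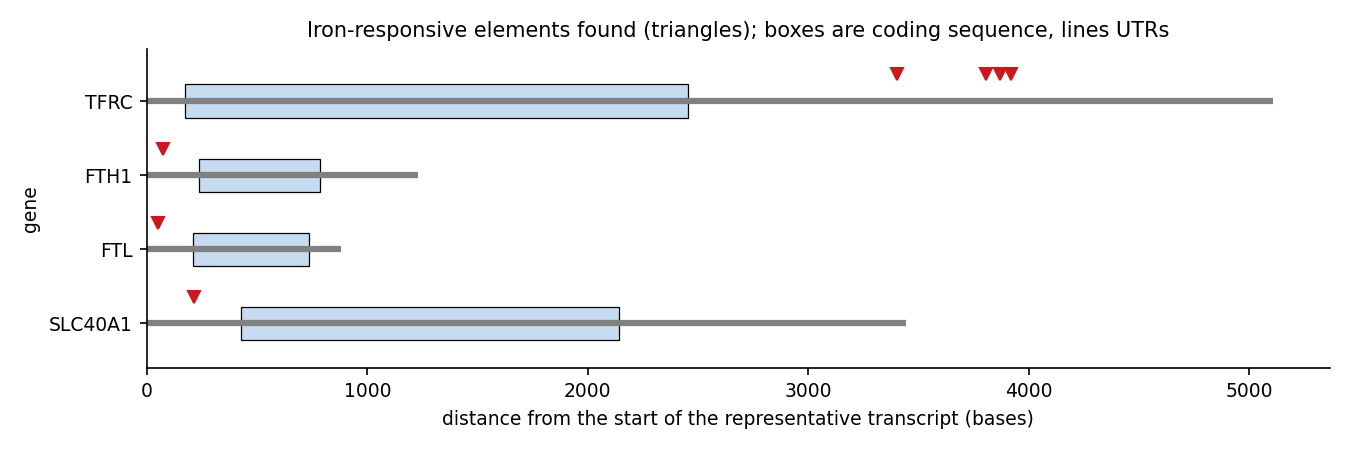
Position of the iron-responsive elements in the representative transcripts of TFRC, FTH1, FTL and SLC40A1, in bases from the transcript start. Triangles mark elements, boxes coding sequence and lines untranslated regions. The single elements that matched the rule in FTH1, FTL and SLC40A1 lie before the coding sequence and the 4 that matched in TFRC after it.

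The libraries held between 15611961 and 25856953 counts each, and 7.69% to 16.9% of counts came from mitochondrial genes. The epithelial markers EPCAM (138 to 225 CPM, counts scaled to a common library size) and CDH1 (83.0 to 186 CPM) and the EGF receptor gene EGFR (3357 to 12124 CPM) were present in every library. Of the receptors that define triple negative tumours by their absence, PGR was at 0 in all libraries, ESR1 at 1.91 to 6.53 CPM and ERBB2 at 7.79 to 24.6 CPM. The leukocyte markers PTPRC and CD3E did not exceed 0.304 CPM, although CD68 reached 28.0 CPM. VWF, COL3A1 and PDGFRB did not exceed 0.440 CPM, PECAM1 ranged from 0.221 to 5.17 CPM and COL1A1 from 5.00 to 14.8 CPM. CPM values are scaled by the trimmed mean of M-values (TMM), and each ± is a standard deviation over 4 libraries. Fold changes are given on the log2 scale with their standard error and the adjusted p of edgeR's quasi-likelihood test, adjusted by Benjamini-Hochberg over all genes tested, with 0.05 as the threshold.

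At 12 h, 2 of the 9 genes were higher than in the control and 6 were lower, against 32.9% and 36.5% of all genes tested. At 24 h the counts were again 2 higher and 6 lower, against 29.2% and 29.6% of all genes. At 48 h, 2 were higher and 3 lower, against 24.0% and 21.8%. At 72 h, 4 were higher and 3 lower, against 30.6% and 31.0%. TFRC was among the higher genes and GPX4, STEAP3 and SLC40A1 among the lower genes at every time. SLC40A1 passed the filter through its control libraries alone, so its call adds nothing to these counts. The 4 comparisons share the same control libraries.

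**Figure D2:**
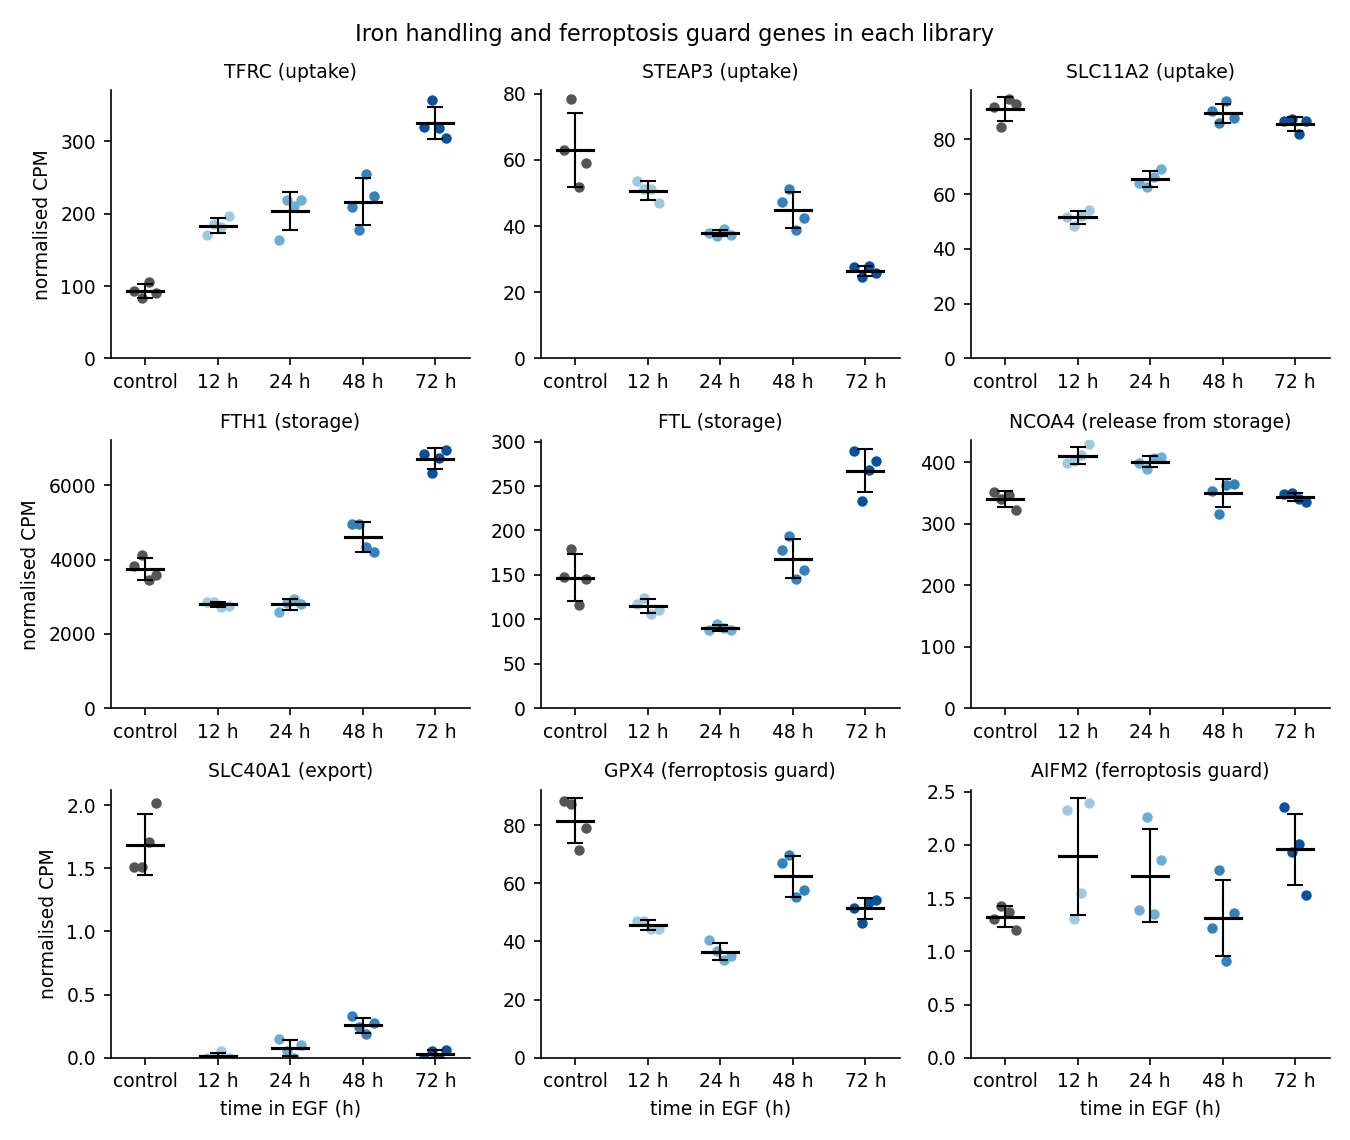
Normalised CPM of the 9 genes in each of the 20 libraries, by time in EGF. Points are libraries, the horizontal line is the group mean and the bars are ± 1 SD (n = 4). All TFRC libraries with EGF lie above the control libraries, all SLC40A1 and GPX4 libraries with EGF lie below them, and FTH1 lies below them at 12 and 24 h and above them at 48 and 72 h.

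TFRC (ENSG00000072274, chr3:196027183-196082189, minus strand) encodes the transferrin receptor, and its mRNA was higher under EGF at every time. It stood at 93.6, 83.2, 106 and 90.4 CPM in the control libraries and at 171, 186, 181 and 197 CPM after 12 h. After 24 h the values were 164, 219, 211 and 219 CPM. Each of these 8 EGF libraries exceeded all control libraries. After 48 h the values were 209.7, 177, 255 and 224 CPM, and after 72 h 319.7, 357, 318 and 305 CPM. The 72 h libraries were the highest of the series and did not overlap with any other group. TFRC rose by 0.98 ± 0.101 (SE) on the log2 scale after 12 h (adjusted p = 8.30e-09), and the difference reached 1.80 ± 0.103 after 72 h (adjusted p = 2.64e-13), a fold of 3.48. Neither 24 h against 12 h (0.15, adjusted p = 0.220) nor 48 h against 24 h (0.09, adjusted p = 0.470) passed the test, whereas 72 h exceeded 48 h by 0.59 (adjusted p = 6.49e-05). Without replicate 1 of the 24 h group, which at 164 CPM lay below the others, 24 h exceeded 12 h by 0.236 (adjusted p = 0.0454).

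STEAP3 (ENSG00000115107, chr2:119223831-119265652, plus strand), the endosomal reductase that turns transferrin-delivered iron into its ferrous form, moved the other way. Control libraries held 62.8, 78.3, 51.9 and 58.9 CPM. The 72 h libraries held 27.5, 24.6, 28.0 and 25.7 CPM, all below every other library of the series. In between, STEAP3 averaged 50.7 ± 2.79 CPM at 12 h, 37.9 ± 0.964 CPM at 24 h and 44.9 ± 5.48 CPM at 48 h. The log2 differences from the control were -0.31, -0.74, -0.49 and -1.25 in order of time (adjusted p = 0.00645, 8.66e-07, 2.41e-04 and 1.51e-10). The receptor mRNA was 3.48 times its control level at 72 h, while the mRNA of the reductase behind it stood at 0.420 times its control level. The 12 h call was lost without control replicate 2, the highest control library (-0.188, adjusted p = 0.0520). An antisense gene, STEAP3-AS1, covers 11% of the STEAP3 exon bases.

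SLC11A2 (ENSG00000110911, chr12:50979401-51028566, minus strand) encodes DMT1, which carries ferrous iron out of the endosome. Its mRNA dipped early and returned. The control libraries held 92.0, 84.5, 94.5 and 93.0 CPM, and after 12 h the values were 51.5, 48.4, 52.0 and 54.1 CPM. After 24 h they were 64.1, 62.5, 66.2 and 69.3 CPM, between both of these groups and without overlap. At 12 h SLC11A2 fell by 0.82 ± 0.059 (adjusted p = 1.56e-11) and at 24 h by 0.47 ± 0.059 (2.67e-07). The recovery was itself past the threshold, with 24 h above 12 h by 0.35 (3.70e-05) and 48 h above 24 h by 0.45 (1.22e-06). At 48 h (89.5 ± 3.40 CPM) and 72 h (85.6 ± 2.48 CPM) the differences from the control were -0.02 ± 0.058 and -0.09 ± 0.058 (adjusted p = 0.760 and 0.202). The 72 h result depended on the scaling between libraries. With library size alone SLC11A2 was lower at 72 h by -0.164, past the threshold (adjusted p = 0.0227).

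FTH1 (ENSG00000167996, chr11:61959718-61967660, minus strand), the ferritin chain that oxidises iron for storage, was the most abundant of the 9 by far and changed direction during the course. In the control it stood at 3831, 4115, 3450.3 and 3591 CPM. At 12 h the values were 2847, 2852, 2721 and 2748 CPM and at 24 h 2596, 2828, 2949.9 and 2798 CPM, all below the control. At 48 h they were 4951, 4956, 4333 and 4209 CPM and at 72 h 6845, 6334, 6748 and 6959 CPM, all above it. FTH1 fell by 0.42 ± 0.064 at both 12 h (adjusted p = 2.67e-06) and 24 h (4.28e-06), and rose by 0.30 ± 0.064 at 48 h (4.69e-04) and 0.84 ± 0.064 at 72 h (5.24e-11). The turn fell between 24 and 48 h, where FTH1 increased by 0.72 (3.09e-09), and a further 0.54 was added by 72 h (4.60e-07). FTH1 took 0.235% to 0.256% of all counts at 12 h and 0.638% to 0.705% at 72 h. The mitochondrial share was 9.03% to 12.6% in the control libraries and 12.3% to 16.4% at 72 h, and its part in the rise was not tested. BEST1, on the opposite strand, covers 62.4% of the FTH1 exon bases but held 1 to 19 counts per library. In these bulk samples, fewer cells with the mRNA and less of it per cell cannot be told apart.

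FTL (ENSG00000087086, chr19:48965301-48966878, plus strand), the ferritin chain that helps form the mineral core, followed FTH1 at a much lower level. Control values were 148, 179, 116 and 145 CPM. The 24 h libraries held 88.0, 94.3, 90.6 and 87.7 CPM, and the 72 h libraries 289.7, 233, 268 and 278 CPM. The first of these groups lay wholly below the control and the second wholly above it. At 12 h (115 ± 7.84 CPM) and 48 h (168 ± 22.0 CPM) the libraries overlapped with the control. FTL fell by 0.36 ± 0.103 at 12 h (adjusted p = 0.00369) and by 0.70 ± 0.104 at 24 h (3.47e-06), and rose by 0.86 ± 0.103 at 72 h (1.26e-07). The 48 h value of 0.19 did not pass (0.131), except without control replicate 2, the highest control library (0.302, adjusted p = 0.0118). Between successive times, FTL was lower at 24 h than at 12 h (-0.35), then higher at 48 h than at 24 h (0.90) and at 72 h than at 48 h (0.67). Per kilobase of transcript, FTL averaged 167 CPM in the control and FTH1 3049 CPM. Rows of FTH1 and FTL processed pseudogenes held at most 57 and 11 counts per library, and how reads shared with them were assigned is not given in the sources used here.

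NCOA4 (ENSG00000266412, chr10:46005088-46030714, minus strand) is the receptor that delivers ferritin for degradation and so frees stored iron. Its changes were small and early. NCOA4 stood in the control libraries at 352, 341, 348 and 323 CPM, the 12 h libraries at 399.7, 402, 412 and 430.4 CPM, and the 24 h libraries at 399, 389, 407 and 409 CPM. Both EGF groups lay above the control without overlap. The increases were 0.27 ± 0.054 at 12 h (adjusted p = 1.07e-04) and 0.23 ± 0.054 at 24 h (6.60e-04), the times at which both ferritin mRNAs were low. At 48 h (349 ± 22.8 CPM) and 72 h (344 ± 7.13 CPM) NCOA4 differed from the control by 0.04 and 0.01 (0.616 and 0.861). These increases depended on the scaling between libraries. With library size alone, which moved the median gene by -0.284 at 12 h and -0.143 at 24 h, the NCOA4 differences were -0.014 and 0.092 (adjusted p = 0.847 and 0.194).

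SLC40A1 (ENSG00000138449, chr2:189560579-189583758, minus strand), the iron exporter ferroportin, had lower counts in every library under EGF than in any control. The 4 controls held 30, 36, 40 and 42 counts. At 12 h 1 count was found in the 4 libraries together, at 24 h 6, at 48 h 22 and at 72 h 2. Among single libraries with EGF the highest count was 6, at 48 h. The control mean was 1.69 ± 0.240 CPM, so that ferroportin mRNA was low to begin with. The ratio of the summed control to EGF counts, scaled for library size, was 129.9 at 12 h with a 95% exact interval of 23.0 to 5165, which covers counting error only. It was 20.8 (9.32 to 57.5) after 24 h, 6.65 (4.23 to 10.9) after 48 h and 64.9 (17.6 to 541) after 72 h. No p is given against the control, since the gene passed the filter through the control libraries alone. All 4 libraries at 48 h lay above all 24 h libraries, but the call between these times was lost without 24 h replicate 2 or 3 or 48 h replicate 1, with adjusted p of 0.0595, 0.0717 and 0.0570.

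GPX4 (ENSG00000167468, chr19:1103926-1106791, plus strand), the peroxidase that detoxifies lipid peroxides in membranes, was lower at every time. The control libraries held 88.2, 87.2, 71.6 and 78.9 CPM. After 12 h the values were 47.1, 46.9, 44.2 and 44.1 CPM and after 24 h 40.6, 36.8, 33.7 and 34.8 CPM. The 24 h libraries were the lowest of the series. At 48 h the values were 66.8, 69.7, 55.2 and 57.5 CPM and at 72 h 51.5, 46.4, 53.7 and 54.2 CPM, still below every control library. GPX4 fell by 0.84 ± 0.085 after 12 h (adjusted p = 5.30e-09) and by 1.16 ± 0.086 after 24 h (4.03e-11). The later differences were -0.39 ± 0.083 after 48 h (5.35e-04) and -0.66 ± 0.084 after 72 h (3.08e-07). It rose from 24 to 48 h by 0.77 (1.14e-07) and was lower by -0.28 at 72 h than at 48 h (0.0129). The last difference was lost without replicate 2 of either group (-0.218 and -0.23, adjusted p = 0.0554 and 0.0570).

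AIFM2 (ENSG00000042286, chr10:70098223-70132934, minus strand) encodes FSP1, which reduces coenzyme Q at the membrane and acts in parallel to GPX4. It was expressed at a low level, with 21 to 61 counts per library, which limits what could be detected. The control libraries held 1.31, 1.43, 1.37 and 1.20 CPM and the 72 h libraries 2.35, 1.93, 2.01 and 1.53 CPM. The 72 h libraries all lay above the control, with a difference of 0.57 ± 0.232 (adjusted p = 0.0365). This call was lost when any of 6 of the 8 libraries was left out (adjusted p up to 0.122). At 12 h the libraries spread from 1.31 to 2.39 CPM, and the difference of 0.52 did not pass (0.0521). It passed without 12 h replicate 2 (0.659, adjusted p = 0.0179) or 12 h replicate 3 (0.605, adjusted p = 0.0363). At 24 h and 48 h the differences were 0.37 and -0.03 (0.187 and 0.940). The fall of GPX4 was not accompanied by a detectable fall of AIFM2 at any time.

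**Figure D3:**
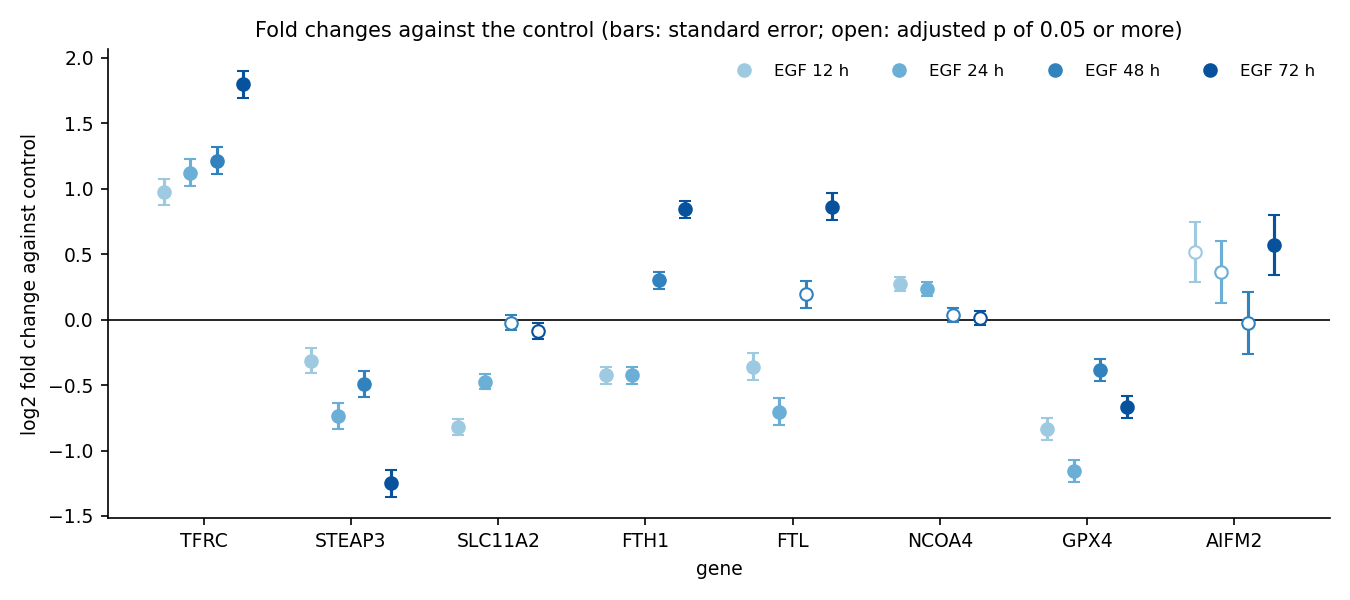
Log2 fold change against the control at 12, 24, 48 and 72 h for 8 of the 9 genes, with bars of 1 standard error. Filled points had an adjusted p under 0.05 and open points did not. SLC40A1 is left out because its fitted fold change depends on the added prior count. TFRC is above 0 and STEAP3 and GPX4 are below 0 at all times, while FTH1 and FTL cross from below to above.

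Tested between successive times, the 9 genes moved as follows. From 12 to 24 h, SLC11A2 was higher and FTL, GPX4 and STEAP3 were lower, against 27.9% and 25.9% of all genes called higher and lower. From 24 to 48 h, 6 genes were higher (FTH1, FTL, SLC11A2, GPX4, SLC40A1 and STEAP3) and NCOA4 was lower, against 25.9% and 24.3%. SLC40A1, at 6, 22 and 2 counts over the libraries at 24, 48 and 72 h, adds nothing to the counts between these times either. From 48 to 72 h, TFRC, FTH1, FTL and AIFM2 were higher and STEAP3, GPX4 and SLC40A1 lower, against 17.9% of all genes in each direction. The AIFM2 difference (0.60, adjusted p = 0.0490) was lost without any of 6 libraries. The STEAP3 rise from 24 to 48 h (0.25, adjusted p = 0.0434) was likewise lost without any of 6 libraries, with adjusted p up to 0.168.

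The counts of TFRC and FTH1, whose iron-responsive elements lie at opposite ends of their mRNAs, were also set against each other within each library. There the scaling between libraries has no effect. As the FTH1 element blocks translation, this ratio of mRNAs is no measure of the action of the elements. The log2 ratio of TFRC to FTH1 counts was -5.35, -5.63, -5.03 and -5.31 in the control libraries. It was -4.06, -3.94, -3.91 and -3.81 at 12 h and -3.98, -3.69, -3.81 and -3.67 at 24 h. All libraries with EGF at these times were above the control. At 48 h the ratios were -4.56, -4.81, -4.09 and -4.23 and at 72 h -4.42, -4.15, -4.41 and -4.51, again above all control libraries. Taken in order of time, the mean differences from the control were 1.40, 1.54, 0.91 and 0.96, folds of 2.64, 2.91, 1.88 and 1.94. Each had p = 0.0286 in a two-sided exact permutation test, the smallest that 4 against 4 libraries allow, and an adjusted p of 0.0571 over the 8 ratio tests, which does not pass 0.05.

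The ratio of the ferritin mRNAs differed less from the control. The log2 ratio of FTH1 to FTL counts averaged 4.69 ± 0.160 in the control. In order of time in EGF it averaged 4.61 ± 0.066, 4.95 ± 0.069, 4.78 ± 0.093 and 4.66 ± 0.082. The differences from the control were -0.08, 0.27, 0.10 and -0.03, with p = 0.457, 0.0571, 0.343 and 0.743 in the exact permutation test and adjusted p of at least 0.0914. At 24 h 3 of the 4 libraries lay above all control libraries.

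**Figure D4:**
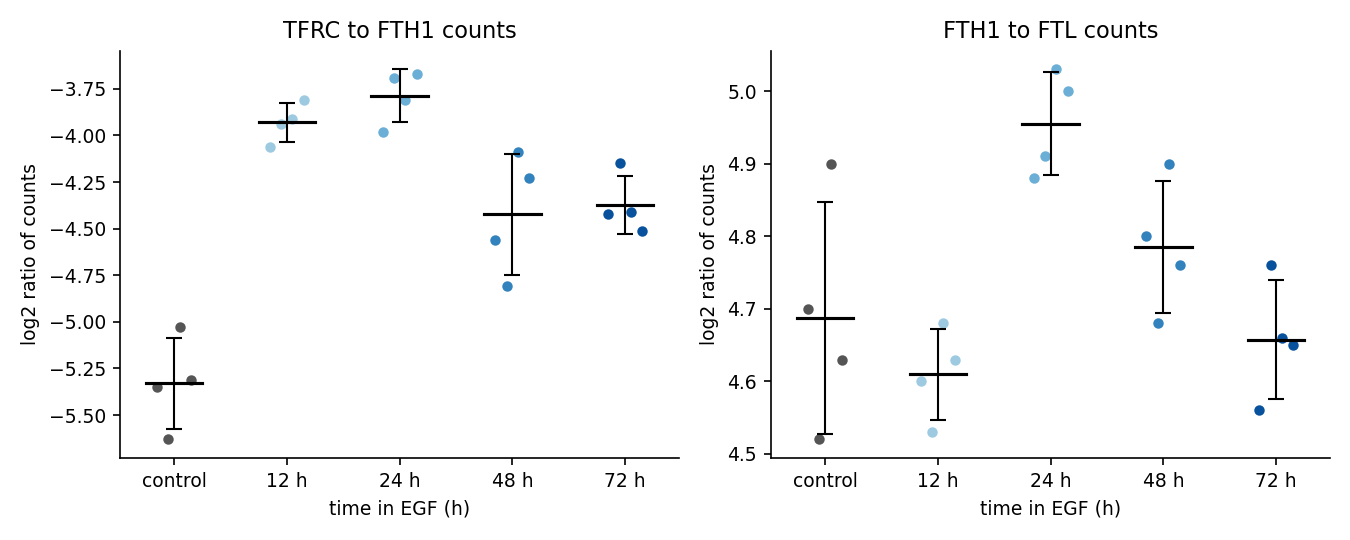
Log2 ratio of TFRC to FTH1 counts (left) and of FTH1 to FTL counts (right) in each library by time in EGF, with group mean and ± 1 SD (n = 4). The TFRC to FTH1 ratio lies above all 4 control libraries in all 16 libraries with EGF, while the FTH1 to FTL ratio overlaps with the control at every time.

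Levels were compared between genes per kilobase of the representative transcript. In the control the order was FTH1 (3049 CPM per kb), FTL (167), NCOA4 (148), GPX4 (88.6), SLC11A2 (21.9), TFRC (18.2), STEAP3 (16.1), SLC40A1 (0.490) and AIFM2 (0.408). Libraries overlapped between FTL and NCOA4, between SLC11A2, TFRC and STEAP3 as neighbours, and between SLC40A1 and AIFM2. At 72 h TFRC (63.6 CPM per kb) had passed GPX4 (55.9) and SLC11A2 (20.6), and SLC40A1 was last at every EGF time.

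The genes with the most similar course over the 20 libraries were sought among 10787 genes with a mean of at least 5 CPM. The libraries form 5 groups, so that Pearson's r mainly describes the order of the group means. FTH1 was nearest to FTL (r = 0.966) and to the complement gene C3 (0.965), and FTL to AC068580.4 (0.966) and FTH1. TFRC was nearest to SLC22A15 (0.980), the metalloproteinase gene MMP7 (0.977) and TMPRSS11E (0.977). STEAP3 was nearest to PTPRF (0.978), PEBP1 (0.963) and KIFC1 (0.960), and SLC11A2 to MUC15 (0.979), CMC4 (0.976) and LINC01235 (0.975). NCOA4 was nearest to the chaperonin gene CCT4 (0.960), MTHFD2 (0.956) and VDAC1 (0.955), and GPX4 to NCSTN (0.977), DCTN3 (0.976) and ALDH3B2 (0.976). SLC40A1 was nearest to PIK3R1 (0.975), SETMAR (0.967) and SELENOP (0.966), which rests on 30 to 42 counts per control library and at most 6 with EGF. For AIFM2 the highest r were with RAD54L2 and NSUN5 (both 0.679) and TRIOBP (0.678). Its 21 to 61 counts per library carry counting error that limits any r, so a course of its own cannot be read from this.

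The antioxidant response element TGACNNNGC, searched on both strands from 250 bases before to 50 bases after the start site in RefSeq promoters (GRCh38.p14), was found in 2 of the 8 genes with a window, NCOA4 and AIFM2. FTH1 had no window. The motif was present in 13.3% of the 35116 windows of all genes. That share counts windows and not genes, and SLC11A2, GPX4 and NCOA4 had several windows each, so it cannot be set beside the count of genes. For NCOA4 the motif lay in 1 of 2 windows.

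Other genes of iron uptake and its regulation were followed in a list of 30, of which 24 were tested. At 12 h 10 were higher and 8 lower, at 24 h 9 and 6, at 48 h 5 and 11, and at 72 h 10 and 10, with list medians between 0.02 and 0.21 and medians of all genes between -0.05 and 0.01. In that order of time the higher calls were 41.7%, 37.5%, 20.8% and 41.7% of the list, beside 32.9%, 29.2%, 24.0% and 30.6% of all genes. The lower calls were 33.3%, 25%, 45.8% and 41.7%, beside 36.5%, 29.6%, 21.8% and 31.0%. The higher count at 12 h was 6 with library size alone or upper-quartile factors, beside 3581 and 4317 of all 16522 genes. It was 6 with at least 10 counts in every library. With factors per gene taken from the deposited normalized values, a setting added after seeing the data, it was 4. These stricter settings kept 12886 and 11956 genes. They could not test BMP6, HEPHL1 and STEAP1, all called higher at 12 h, so their counts are not out of the same 24 genes. BMP6, HEPHL1 and STEAP1 here and ALOXE3 among the peroxidation genes passed the filter through libraries with EGF alone. Their rise adds nothing to the counts of their lists, and only their levels are given. STEAP1 averaged 0.0895 ± 0.0313 CPM without EGF and 4.07, 5.79, 2.08 and 5.70 CPM in order of time in EGF. TFR2, called higher at 72 h, and STEAP2, called higher at 24 and 72 h, were near the limit of the filter. They averaged 0.218 and 0.354 CPM without EGF and 0.568 and 0.884 CPM at 72 h, their highest means. Both may have passed the filter mainly through libraries with EGF, so their calls add nothing to the counts of the list either. BMP6, the bone morphogenetic protein that induces the hormone hepcidin, averaged 0.107 ± 0.0840 CPM without EGF and 29.7 ± 0.993 CPM after 12 h. Its mean was 14.9 CPM at 24 h, 2.24 CPM at 48 h and 6.42 CPM at 72 h. Hepcidin itself (HAMP) was too low to be tested. HEPHL1, a copper-containing ferroxidase, had means of 0.159 ± 0.0715 CPM without EGF and 29 ± 0.894 CPM after 72 h. Ceruloplasmin (CP), the ferroxidase of plasma, fell from 57.0 ± 6.22 to 3.90 ± 0.144 CPM at 72 h (-3.87 ± 0.13, adjusted p = 1.12e-17). HFE, a partner of the transferrin receptor, was lower at all 4 times, with -2.31 ± 0.13 at 12 h (adjusted p = 2.52e-13). Of the iron regulatory proteins, IREB2 was lower at 12, 48 and 72 h (-0.25, -0.49 and -0.59) and ACO1 at 48 and 72 h (-0.29 and -0.54). The differences of ACO1 at 12 and 24 h were -0.03 and -0.16, and that of IREB2 at 24 h was -0.05, none past the threshold.

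Haem metabolism and mitochondrial iron were covered by 36 genes, 35 of them tested. More were lower than higher at each time, with 17 lower and 7 higher at 12 h, 18 and 4 at 24 h, 12 and 8 at 48 h and 15 and 6 at 72 h. The lower calls were 48.6%, 51.4%, 34.3% and 42.9% of the list, beside 36.5%, 29.6%, 21.8% and 31.0% of all genes, and the higher calls 20%, 11.4%, 22.9% and 17.1%, beside 32.9%, 29.2%, 24.0% and 30.6%. With library size alone 27 were lower at 12 h, beside 8275 of all 16522 genes. In a fit of only the 8 libraries compared 7 were lower at 48 h. That fit also called fewer of all genes lower, 2613 of 15572 beside 3596 of 16522 in the main fit. Medians lay between -0.24 and -0.12. ALAS1, the first enzyme of haem synthesis, rose from 26.3 ± 2.50 to 62.7 ± 3.48 CPM at 72 h (1.25 ± 0.07, adjusted p = 2.42e-13). The next enzyme, ALAD, was lowest at 12 h (-1.56 ± 0.13, adjusted p = 1.36e-10). The mitochondrial iron importer SLC25A28 was highest at 12 h (0.97). FDXR, the ferredoxin reductase, was lower at 12, 24 and 72 h (-1.20, -1.32 and -0.82) and not called at 48 h (-0.31, adjusted p = 0.264). The ferredoxin gene FDX1 was lower at all 4 times (-0.34, -0.66, -0.70 and -0.60). HMOX1, which breaks down haem and frees its iron, fell at 12 h (-0.56, adjusted p = 5.07e-04), did not pass at 24 h (-0.17) and rose at 48 h (0.35, 0.0246) and 72 h (0.52, 7.64e-04).

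Genes of cystine, glutathione and thioredoxin metabolism do not all supply GPX4, and some, such as CHAC1, break glutathione down. The list held 27 genes, of which 25 were tested. Of these, 6 were higher and 7 lower at 12 h, 9 and 10 at 24 h, 11 and 3 at 48 h and 8 and 6 at 72 h, with medians between -0.01 and 0.17. The higher calls were 24.0%, 36%, 44.0% and 32.0% of the list, beside 32.9%, 29.2%, 24.0% and 30.6% of all genes, and the lower calls 28.0%, 40.0%, 12.0% and 24.0%, beside 36.5%, 29.6%, 21.8% and 31.0%. The balance at 12 h depended on the setting. With library size alone 14 were lower, beside 8275 of all 16522 genes. With factors per gene 10 were higher and 4 lower, and 2 were lower at 72 h. That setting also left out genes without 20 counts in every library, among them GGT1, called lower at all 4 times. The cystine importer SLC7A11 averaged 21.1 ± 3.85 CPM without EGF, 38.1 ± 2.20 CPM after 24 h and 37.4 ± 1.74 CPM after 72 h. It was higher at 24, 48 and 72 h (0.85, 0.44 and 0.82) and not called at 12 h (-0.23, adjusted p = 0.0638). CTH, which makes cysteine from cystathionine, rose up to 2.29 ± 0.08 at 72 h (adjusted p = 7.68e-17), from 10.4 to 51.0 CPM. CHAC1, which degrades glutathione, was highest at 12 h (1.89 ± 0.15, adjusted p = 1.02e-10). GGT1, which cleaves extracellular glutathione, was the largest fall of the list at every time, down to -3.72 ± 0.59 at 24 h (adjusted p = 1.48e-05).

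Radical trapping outside GPX4 was represented by 22 genes, all tested. In order of time, 13, 13, 8 and 14 of them were lower, or 59.1%, 59.1%, 36.4% and 63.6%, beside 36.5%, 29.6%, 21.8% and 31.0% of all genes. The higher calls were 5, 4, 2 and 4, or 22.7%, 18.2%, 9.09% and 18.2%, beside 32.9%, 29.2%, 24.0% and 30.6%. The 2 higher calls at 48 h became 1 without control replicate 1, 2 or 4 or 48 h replicate 3 or 4. With factors per gene 4 were lower at 48 h, beside 2385 of the 11956 genes tested in that setting. List medians were -0.32, -0.47, -0.11 and -0.54, beside medians of all genes between -0.05 and 0.01. The coenzyme Q genes COQ5 (-1.62 ± 0.16 at 12 h) and COQ3 (-1.03 ± 0.16 at 72 h) and the quinone reductase gene NQO1 (-1.28 ± 0.08 at 24 h) were the largest falls at these times. AIFM2, which reduces coenzyme Q, was not called lower. Rises were led by MBOAT2 (0.86 at 12 h and 0.89 at 24 h), an acyltransferase that builds monounsaturated lipids into phospholipids, by the desaturase SCD at 48 h (0.62) and by GCH1 at 72 h (0.69), the first enzyme of tetrahydrobiopterin synthesis. SCD was lower than the control at the other 3 times, with means of 3131 CPM in the control, 1564 CPM at 12 h, 1816 CPM at 24 h, 4797 CPM at 48 h and 2695 CPM at 72 h.

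Of 26 genes that promote lipid peroxidation, 25 were found under their symbol and 18 tested. Calls were 6 higher and 8 lower at 12 h, 7 and 6 at 24 h, 10 and 4 at 48 h and 8 and 5 at 72 h, with medians between -0.11 and 0.22. The higher calls were 33.3%, 38.9%, 55.6% and 44.4% of the list, beside 32.9%, 29.2%, 24.0% and 30.6% of all genes, and the lower calls 44.4%, 33.3%, 22.2% and 27.8%, beside 36.5%, 29.6%, 21.8% and 31.0%. With factors per gene the lower calls were 5, 3, 1 and 3, among only those genes with 20 counts or more in every library. ACSL4, which activates polyunsaturated fatty acids for incorporation into phospholipids, rose from 78.9 ± 10.6 CPM to 135 ± 10.3 CPM at 12 h and 159 ± 10.3 CPM at 24 h, and was called higher at all 4 times (0.77, 1.01, 0.61 and 0.66). LPCAT3, which inserts these fatty acids, was lower at 12, 24 and 72 h (-1.20, -1.36 and -0.81) and not called at 48 h (-0.15, adjusted p = 0.132). The lipoxygenase family gene ALOXE3 had means of 0.213 ± 0.123 CPM without EGF and 10.1 ± 0.626 CPM after 72 h. POR, a reductase that feeds electrons to peroxidation, was the largest fall at 48 h (-0.28, adjusted p = 0.0139).

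**Figure D5:**
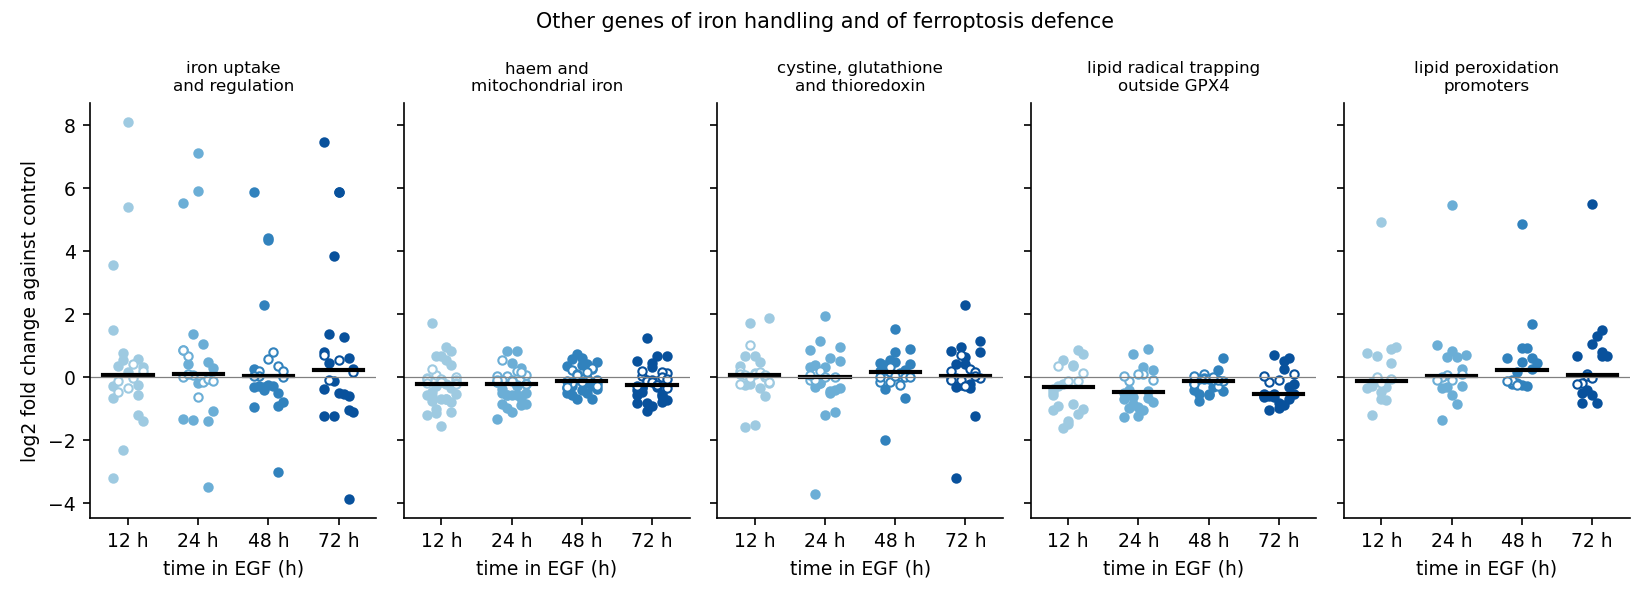
Log2 fold change against the control of the tested genes in 5 pathway lists at each time in EGF. Filled points had an adjusted p under 0.05, open points did not, and black lines are list medians. The radical trapping list has its medians at -0.32, -0.47, -0.11 and -0.54, and BMP6, HEPHL1 and ALOXE3 stand at the top of their lists.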

How the data were processed

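RNA from 20 libraries of 1 cell line was extracted with an RNeasy kit, prepared with the Lexogen Corall mRNA protocol and sequenced as single-end reads. The authors deposited estimated counts per gene, rounded to whole numbers and not normalized, together with values that DESeq2 normalized (used as a score), whose factors differ between genes and are not described. The submitters' notes name hg38 and DESeq2. The aligner, the annotation and the treatment of shared reads are not given in the sources used here. The 10 deposited tables hold the same counts for 60271 genes. Columns with the authors' own fold changes and p-values were not used.

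Genes were kept by filterByExpr (16522), scaled by TMM and tested with edgeR 4.0.16 (robust quasi-likelihood, 1 mean per group over all libraries, prior count 0.125) in R 4.3.3 with limma 3.58.1. DESeq2 1.42.0 was an alternative, since the study used its Wald test, and edgeR was used as the main test because the values are counts. Both ratios were compared by an exact permutation test. The fit was tested on simulated data with known fold changes. Groups came from the labels, which call the replicates biological without saying how they were kept apart, so that p-values measure the spread between these samples. Positions are from GENCODE 29 (GRCh38). Counting error is small at 15611961 to 25856953 counts per library except for AIFM2 and SLC40A1. Replicates of a group differed by more than sampling noise in all 30 pairs, with chi-square per degree of freedom of 3.36 to 51.7. The 9 genes and the 5 pathway lists were chosen with earlier results of these data known. Named were all 9 genes, the 3 most similar genes of each with a mean of at least 5 CPM, the largest called rise and fall per list and time with a mean of at least 1 CPM, and SLC7A11, ACSL4, IREB2, ACO1 and HMOX1. An item that this rule names is not reported here. HAMP, STEAP1, STEAP2, TFR2 and the values of BMP6, FDXR, FDX1 and SCD at further times were added after their values were seen. Alternatives were other scalings, filters and tests, a replicate block, added pseudogene counts and leaving out each library. Factors per gene from the deposited normalized values were added after seeing the data.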

Additional observations from a re-analysis of the deposited data

Results flagged for a closer look

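The 55 sets of 4 libraries given above as CPM or log2 ratios were each searched for a library that stood apart, with a gap to the nearest of the others above Dixon's 95% critical value, which chance gives in about 1 of 20 groups. It was met by 2. TFRC in replicate 1 of the 24 h group was at 164 CPM beside 211 to 219 CPM in the others. SLC40A1 in replicate 3 of the 12 h group was at 0.0552 CPM, which is 1 count, beside 0 in the others.

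The effect of EGF on FTH1 differed between times. It was lower than the control at 24 h and higher at 48 h, and the tested difference between these effects was 0.72 on the log2 scale (adjusted p = 3.09e-09 in edgeR's quasi-likelihood test), with all 4 libraries at 48 h above all 4 at 24 h.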

How the results depend on the processing

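With library size alone, members called higher were 1 at 12 h and 1 at 24 h against the control, and from 12 to 24 h calls were 2 higher and 1 lower, as with upper-quartile factors, while the count lower from 24 to 48 h was 0. With factors per gene from the deposited normalized values, 1 was lower from 48 to 72 h, of 8 members tested, as SLC40A1 had too few counts for that setting. Leaving out each library gave 1 to 2 members higher from 12 to 24 h, the higher count without 12 h replicate 3 or 24 h replicate 1 or 3. Library size alone shifted the calls over all genes to 3581 higher and 8275 lower at 12 h, from 5433 and 6032, to 3666 and 6421 at 24 h, from 4819 and 4898, to 6107 and 2796 from 12 to 24 h, to 5948 and 2337 from 24 to 48 h and to 2132 and 4175 from 48 to 72 h. Upper-quartile factors gave 4317 and 7299 at 12 h and 5913 and 3035 from 12 to 24 h.

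Factors per gene gave 4322 and 3491 at 12 h, 3211 and 3125 at 24 h, 1949 and 2385 at 48 h, 3068 and 3491 at 72 h, 2289 and 3546 from 12 to 24 h, 2139 and 2854 from 24 to 48 h and 1738 and 1471 from 48 to 72 h, among the 11956 genes that had 20 counts or more throughout.

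Signs turned only where the main value was small and not called, except for NCOA4 at 12 h (-0.014 with library size alone). SLC11A2 at 48 h was 0.014 with at least 10 counts in every library and 0.153 with factors per gene, and at 72 h 0.045 with the latter. AIFM2 at 48 h was 0.005 with at least 10 counts, and between -0.199 and 0.127 without single libraries. NCOA4 at 72 h was -0.064 with library size alone and -0.011 with upper-quartile factors, and between -0.014 and 0.027 without single libraries. From 12 to 24 h, FTH1 was -0.018 with DESeq2 size factors and in the Wald test, -0.037 without the filter, -0.011 with factors per gene and between -0.028 and 0.033 without single libraries, and NCOA4 was 0.106 with library size alone, 0.080 with upper-quartile factors and 0.004 with at least 10 counts. TFRC from 24 to 48 h was between -0.002 and 0.175 without single libraries.

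The ratio of TFRC to FTH1 differed from the control by 1.303 to 1.503 at 12 h, 1.443 to 1.643 at 24 h, 0.797 to 1.038 at 48 h and 0.859 to 1.059 at 72 h without single libraries, and passed without control replicate 3 (adjusted p = 0.0457 in the exact permutation test). FTH1 to FTL differed by 0.21 to 0.337 at 24 h, also past the threshold without that library, and by -0.085 to 0.041 at 72 h. Without control replicate 3 the TFRC to FTH1 tests kept p = 0.0286, the smallest that the exact permutation test of 3 against 4 libraries allows. Their adjusted p fell only because FTH1 to FTL at 24 h then reached the same p. Factors per gene ended the STEAP3 call at 12 h (-0.18, adjusted p = 0.173) and the GPX4 call from 48 to 72 h (-0.139, 0.355). AIFM2 passed at 12 h with DESeq2 size factors (0.0420) and with factors per gene (0.00782), and at 72 h did not pass with library size alone (0.0639) or without the filter (0.0633). The FTL and GPX4 calls from 12 to 24 h were lost with library size alone (-0.205 and -0.177) and with upper-quartile factors (-0.23 and -0.203). TFRC from 12 to 24 h passed with library size alone (0.285) and with upper-quartile factors (0.262), and from 24 to 48 h with library size alone (0.25). The cause of these changes was not tested.

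Same-numbered libraries did not deviate together, with correlations of -0.24 to 0.35 (median 0.01) over 40 pairs, of which 5 were over 0.1. A replicate block changed no call of the 9 genes and gave 5512 genes higher and 6065 lower at 12 h. For both ratios, sign flips of the 4 pairs cannot pass the threshold, and the adjusted p of the TFRC to FTH1 ratio was 0.200 with the replicate block at each time, with a difference of 1.402 at 12 h. Of the 63 fold changes of single genes under settings other than leaving out a library, 577 of 613 values kept their direction and side of the threshold. Of 400 such counts over the pathway lists, 25 were lower and 3 higher by more than 1.5 times.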
